A study of Saccharomyces cerevisiae with 44 samples.

Results

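The 10 genes described here carry yeast metabolism between pyruvate, ethanol, acetate and acetyl-CoA. They were listed by name and systematic identifier, with earlier results of these data known, and are 10 of 6692 yeast rows in the expression table. All 10 lie among the 5820 yeast genes tested, those that averaged 1 RPKM or more (reads per kilobase of gene, scaled to library size) over the 44 libraries. The study followed Saccharomyces cerevisiae strain CEN.PK122 through the yeast metabolic cycle, in which a starved, glucose-limited continuous culture swings together between phases of high and low oxygen use. In the fast condition, medium with 1% glucose replaced 0.12 to 0.13 of the culture volume per hour and 20 libraries were taken at intervals of 13 min. In the slow condition, the same medium replaced 0.045 to 0.05 of the volume per hour and 24 libraries were taken at intervals of 36 min. Each course spans 2 cycles, counted here as 10 time points (130 min) per cycle in fast and 12 time points (432 min) in slow. Both conditions share the strain, with no genetic change given, as well as the temperature, the acidic minimal medium with yeast extract and the starvation before feeding. No replicate cultures are labelled. Each condition was taken as 1 culture, every p-value below measures the spread between its time points or cycles, and anything else that differed between the 2 runs cannot be told apart from the growth rate.

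Pyruvate decarboxylase turns pyruvate into acetaldehyde, which alcohol dehydrogenase either reduces to ethanol (chiefly Adh1) or makes again from ethanol (Adh2). Aldehyde dehydrogenases oxidise acetaldehyde to acetate in the cytosol (Ald6) or in mitochondria (Ald4), and acetyl-CoA synthetases (Acs1 and Acs2) join acetate to coenzyme A. Ady2 is a plasma membrane protein that imports acetate. ADH2, ACS1 and ADY2 are textbook glucose-repressed genes, under Adr1, Cat8 and Snf1, while PDC1 and ADH1 are among the classic glycolytic genes of fermenting cells. The comparison asked of these genes was making against use of ethanol and acetate over both time courses.

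Depth and read counts were inferred from the deposited RPKM values. Depth was 11.5 ± 2.73 M (mega) reads per library in fast (SD, n = 20, range 7.6 to 19.7 M) and 9.95 ± 1.56 M in slow (SD, n = 24, range 6.45 to 13.1 M). The least covered value of a member rested on 126 reads in fast (PDC6) and on 149 reads in slow (PDC5). Added control RNAs took 0.433% to 1.60% of the reads in fast and 0.679% to 1.27% in slow, and in slow their share was lowest at time points 12 and 24, with 0.731% and 0.679%. The same libraries gave the slow minima of several members below, and the part of RNA content in those minima was not tested. In bulk RNA, fewer cells expressing a gene and less RNA of it per cell cannot be told apart. The labels give no mating type, and markers of both kinds were present, of the alpha kind chiefly MF(ALPHA)1 in fast. Summed a-specific genes (6 of 6 detected) ranged from 919 to 12758 RPKM in fast and from 463 to 2144 RPKM in slow. Summed alpha-specific genes (4 of 4 detected) ranged from 91.2 to 1153 RPKM in fast and from 50.6 to 124 RPKM in slow. MF(ALPHA)1 alone ranged from 51.6 to 1108 RPKM in fast and from 10.6 to 88.3 RPKM in slow. STE3, SAG1 and MF(ALPHA)2 had fast medians of 13.3, 30.1 and 1.45 RPKM. Summed haploid-specific genes ranged from 240.4 to 1000.5 RPKM in fast and from 212.9 to 649.1 RPKM in slow. The part of mating type in the results was not tested. As marks of the cycle, RPL17B (a ribosomal protein gene) peaked at time point 8 of the fast cycle and 12 of the slow cycle, MRPL10 (a mitochondrial ribosome gene) at 1 in both, and POT1 (peroxisomal fatty acid oxidation) at 3 in fast and 2 in slow.

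The genes formed 3 groups in time, described here relative to the turn of the cycle, the step past its last time point (10 in fast, 12 in slow) to time point 1. PDC6 and PDC1 were highest late in the cycle, ADH1, ALD6, ACS2 and PDC5 near its turn, and ADY2, ACS1, ALD4 and ADH2 together after the turn. In the mean of the 2 fast cycles the order of the peaks was PDC6 at time point 7, PDC1 at 8, PDC5 at 9, ADH1 at 10, ACS2 and ALD6 at 1, ADY2 at 2, ACS1 and ALD4 at 3 and ADH2 at 4. In slow cycles PDC6 and PDC1 peaked at 10, PDC5 at 12, ADH1, ACS2 and ALD6 at 1, and ADY2, ACS1, ALD4 and ADH2 at 2. The order of these groups was thus alike in both conditions, although 13 and 36 min steps resolve it unequally. Of all genes that cycled, 32.9% peaked at time point 8 in fast, and in slow 40.4% peaked at 12 and 23.7% at 1, while 4.68% peaked at 2.

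**Figure D1:**
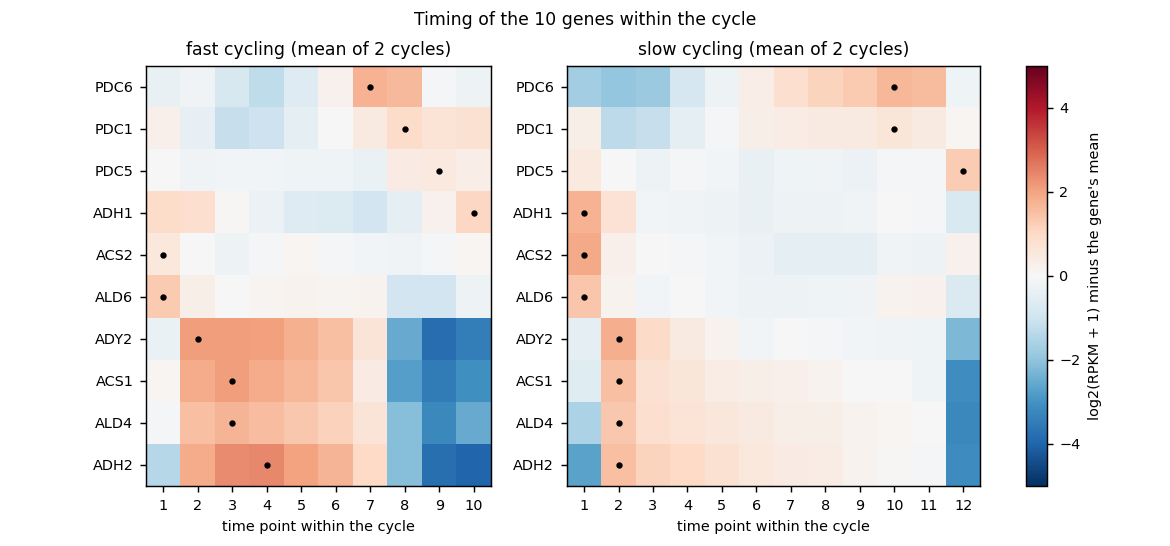
Mean log2(RPKM + 1) of the 2 cycles at each time point of the cycle (x axis), as a colour scale of the difference from the gene's own mean, for the 10 genes (rows), fast at left and slow at right; black dots mark each gene's peak. The 4 lower rows are high together after the turn of the cycle and low together at time points 8 to 10 in fast and at 12 in slow. At time point 1 in slow ADH2 and ALD4 are still well below their means, ACS1 and ADY2 less so. That mean joins unlike libraries, slow time points 1 and 13, with 812 and 112 RPKM for ADY2 and 1213 and 560 RPKM for ACS1.

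A rank test for a rhythm of about 1 cycle (the JTK_Cycle method with an exact null, one-sided, q by Benjamini-Hochberg over 5820 genes) called 7 of the 10 genes in fast and 9 in slow, against 74.3% and 55.1% of all tested genes. The exceptions were PDC5 (q = 0.0504), ALD6 (q = 0.282) and ACS2 (q = 1) in fast and ADH1 (q = 0.217) in slow. A test for any difference between positions in the cycle (limma's F test on log2(RPKM + 1)) called 10 of 10 in each condition, where 84.1% of all tested genes passed in fast and 85.2% in slow. With a linear trend taken out of each course, the rank test called 4 of the 10 in slow, beside 2184 of all 5820 tested genes. ADH2, ALD4, ACS1, ADY2 and ALD6 then no longer passed in slow (q from 0.0806 for ADH2 to 0.988 for ALD6). Scaled to the control RNAs, PDC6 no longer passed in fast (q = 0.0916). The median swing of the 10 genes, highest minus lowest position of the mean cycle, was 2.65 on the log2 scale in fast and 3.06 in slow, against 1.13 and 1.16 over all tested genes. The second cycle repeated the first with a median correlation over positions of 0.915 in fast (range 0.631 to 0.987) and 0.954 in slow (range 0.651 to 0.980), against medians of 0.827 and 0.867 over all tested genes.

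**Figure D2:**
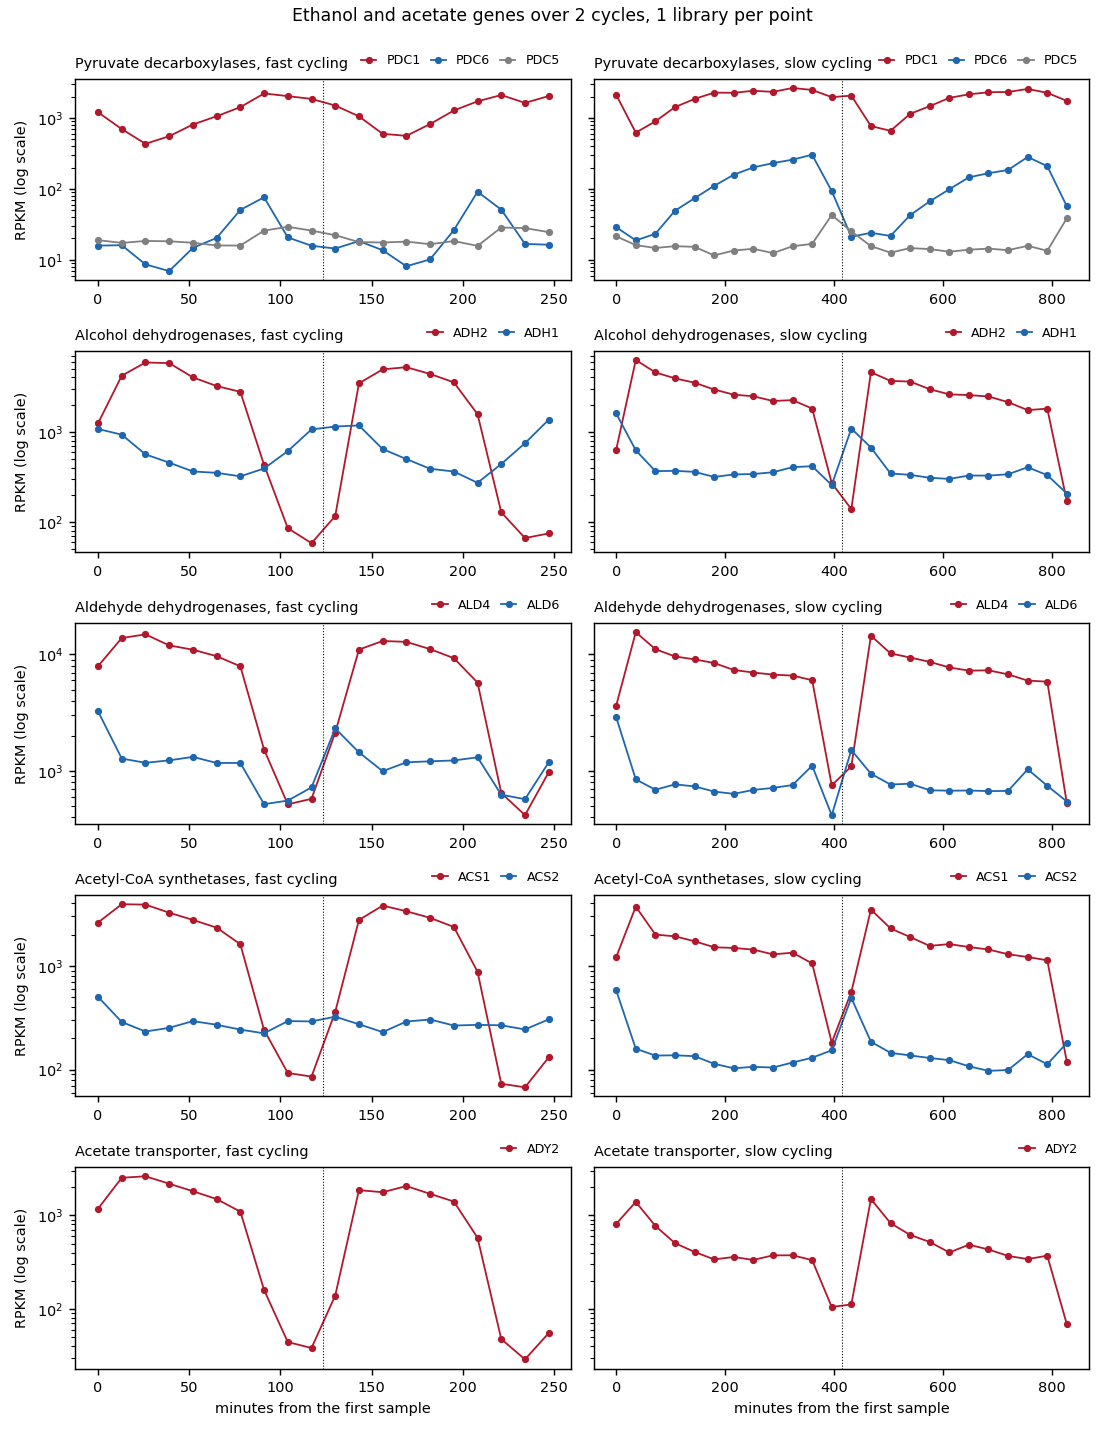
RPKM on a log scale against minutes from the first sample, fast at left and slow at right, 1 point per library; the dotted line separates the 2 cycles. ADH2, ALD4 and ACS1 stay high for most of each cycle and drop steeply before its turn, ADY2 does so in fast but in slow declines soon after its peak, and PDC1 is lowest soon after the turn.

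The pyruvate decarboxylases came first. PDC1 (YLR044C, chrXII:232390-234081), the main isozyme, ranged from 433 to 2221 RPKM in fast with a median of 1242, and from 623 to 2654 RPKM in slow with a median of 2096. It was lowest just after the turn, with 516 ± 117 RPKM at time point 3 of the fast cycle and 697 ± 105 RPKM at time point 2 of the slow cycle (SD of the 2 cycles, n = 2), and it climbed over the rest of the cycle to 2166 ± 77.1 RPKM in fast and 2614 ± 57.8 RPKM in slow. The groups overlapped widely, and the swing of the mean cycle was 4.25-fold in fast and 3.77-fold in slow (rank test q = 1.74e-05 in fast and 7.80e-06 in slow). PDC1 stayed at or above mid-height, the middle of its range on the log2 scale, at 6 of 10 positions in fast and 9 of 12 in slow.

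PDC6 (YGR087C, chrVII:651290-652981), a minor isozyme that serves little in glucose-grown cells, ranged from 6.93 to 91.3 RPKM in fast with a median of 16.2, and from 18.8 to 303 RPKM in slow with a median of 96.1. In fast it formed a short peak, at or above mid-height at 2 of 10 positions, with its maxima at time points 8 and 17. In slow the mean of the 2 cycles climbed from position 2 to position 10, the maxima of the single cycles were at time points 11 and 22, and 6 of 12 positions lay at or above mid-height. The mean cycle swung 8.11-fold in fast and 12.2-fold in slow (rank test q = 0.000857 and 7.08e-06). PDC6 amounted to between 0.799% and 5.30% of the PDC1 level per length in fast and to between 1.02% and 12.2% in slow.

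PDC5 (YLR134W, chrXII:410723-412414), an isozyme known to be induced when PDC1 is lost, was low throughout, at 15.7 to 29.2 RPKM in fast with a median of 18.3 and at 11.5 to 42.8 RPKM in slow with a median of 14.7. Its 2 slow maxima fell at time points 12 and 24 (40.7 ± 2.99 RPKM, SD of the 2 cycles, n = 2), and time point 13 followed with 25.2 RPKM. Swings were 1.76-fold in fast and 3.14-fold in slow; the rank test gave q = 0.0504 in fast and 0.00301 in slow, and the F test q = 6.17e-05 and 1.30e-07. PDC5 shares 87.2% of its coding bases with PDC1, and 0.974% of its 50-base windows are identical to PDC1. The sources used here do not give how reads matching several genes were counted.

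ADH1 (YOL086C, chrXV:159548-160594), the main ethanol-forming enzyme, ranged from 273 to 1363 RPKM in fast with a median of 532, and from 208 to 1598 RPKM in slow with a median of 344. Its high libraries in fast were time points 1, 2, 10 to 12 and 20, a broad crest over the turn of the cycle at or above mid-height at 5 of 10 positions. In slow time points 1 and 13 stood out with 1598 and 1090 RPKM, and the next library had 672 RPKM. The mean cycle swung 4.05-fold in fast and 5.67-fold in slow. The rank test called the broad fast crest (q = 1.75e-06) and not the narrow slow one (q = 0.217), whereas the F test called both (q = 1.97e-06 in fast and 8.20e-08 in slow). ADH3, which makes the mitochondrial enzyme, also peaked at time point 1 in slow.

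ADH2 (YMR303C, chrXIII:873291-874337), which oxidises ethanol, had the largest swing of the 10 genes in both conditions. It ranged from 58.8 to 5862 RPKM in fast with a median of 2995, and from 140 to 6236 RPKM in slow with a median of 2517. At its peak it ranked 11 among all yeast rows per length in fast and 13 in slow. In fast, ADH2 was high at time points 2 to 7 and 12 to 17 (1571 to 5862 RPKM) and at 58.8 to 129 RPKM at 9 to 11 and 18 to 20. Time points 1 and 11, the same place in the 2 fast cycles, differed, with 1245 and 117 RPKM. There ALD4 had 7942 and 2140 RPKM, ACS1 2611 and 360 RPKM and ADY2 1180 and 139 RPKM. The largest steps of ADH2 in fast were a rise of 4.86 on the log2(RPKM + 1) scale between time points 11 and 12 and a drop between 17 and 18, where it fell by 3.60. In slow it rose by 5.02 between time points 13 and 14, declined over the cycle to 1813 RPKM at time point 11 and 1808 RPKM at 23, and fell by 3.40 between 23 and 24. The mean cycle swung 81.1-fold in fast and 24.7-fold in slow (rank test q = 1.75e-06 and 0.00605).

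ADH2 and ADH1 are near copies, which bears on how far their reads can be kept apart. Their coding sequences share 88.8% of 1047 bases, and 14.0% of the 50-base windows of ADH2 are identical in ADH1. Shown here are the coding stretch in which the genes are alike (coding bases 193 to 292, 0 differences) and the stretch in which they differ most (coding bases 610 to 709, 24 differences, in capitals), read from the RefSeq genome, build R64, whose gene coordinates are those of sacCer3 in the table; all are written in the direction of transcription.
ADH2 (chrXIII:874046-874145, minus strand): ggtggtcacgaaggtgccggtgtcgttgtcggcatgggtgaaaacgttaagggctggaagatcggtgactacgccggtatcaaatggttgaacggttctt
ADH1 (chrXV:160303-160402, minus strand): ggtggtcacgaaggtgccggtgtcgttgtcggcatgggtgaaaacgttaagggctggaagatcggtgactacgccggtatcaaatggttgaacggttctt
ADH2 (chrXIII:873629-873728, minus strand): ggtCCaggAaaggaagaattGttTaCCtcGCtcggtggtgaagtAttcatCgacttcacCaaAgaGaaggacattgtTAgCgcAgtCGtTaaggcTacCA
ADH1 (chrXV:159886-159985, minus strand): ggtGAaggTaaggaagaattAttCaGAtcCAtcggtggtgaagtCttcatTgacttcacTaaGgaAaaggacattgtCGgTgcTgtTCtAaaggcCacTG
In the listed levels, ADH2 was 0.0551 times ADH1 at fast time point 10, and 12.6 times at time point 4. These ratios cannot show how many reads of the lowest ADH2 values came from ADH1. That share, and its part in the swing of ADH2, was not tested.

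The aldehyde dehydrogenase genes also peaked apart, ALD4 after ALD6. ALD4 (YOR374W, chrXV:1039840-1041399), the mitochondrial enzyme, was the most abundant of the 10 genes per length, at 419 to 14877 RPKM in fast with a median of 8624 and at 527 to 15553 RPKM in slow with a median of 7294. Its best place among all yeast rows was 2 in fast and 4 in slow. Its troughs were 469 ± 70.8 RPKM at time point 9 of the fast cycle and 641 ± 161 RPKM at time point 12 of the slow cycle (SD of the 2 cycles, n = 2), 29.9-fold and 23.8-fold below the peaks (rank test q = 4.43e-06 and 0.00224).

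ALD6 (YPL061W, chrXVI:432588-434090), the cytosolic enzyme and the main source of acetate for biosynthesis, ranged from 520 to 3254 RPKM in fast with a median of 1188, and from 418 to 2893 RPKM in slow with a median of 728. Time point 1 was highest in both courses, and the next maximum, at time point 11 in fast and 13 in slow, was lower, with 2322 RPKM and 1518 RPKM. The mean cycle swung 4.85-fold in fast and 4.37-fold in slow. The rank test gave q = 0.282 in fast and 0.0309 in slow, and the F test q = 1.90e-05 and 0.000118. ALD4 and ALD6 share 61.3% of their aligned coding bases, with no identical 50-base window.

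Of the acetyl-CoA synthetase genes, ACS1 swung more widely than ACS2 in both conditions. ACS1 (YAL054C, chrI:42881-45022), the form repressed by glucose, ranged from 67.6 to 3921 RPKM in fast with a median of 2350, and from 119 to 3718 RPKM in slow with a median of 1461. The mean cycle swung 47.9-fold in fast and 24.3-fold in slow (rank test q = 6.78e-06 and 0.00147). ACS2 (YLR153C, chrXII:445524-447575), the form needed for growth on glucose and for histone acetylation, ranged from 224 to 503 RPKM in fast with a median of 272, and from 97.4 to 580 RPKM in slow with a median of 133. In fast its mean cycle swung 1.74-fold, the F test gave q = 0.0372 and its cycles correlated least of the 10 genes (0.631). In slow, time points 1 and 13 stood out at 580 and 491 RPKM over a level of 97.4 to 186 RPKM elsewhere (5.20-fold swing, rank test q = 5.07e-06).

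ADY2 (YCR010C, chrIII:132273-133124), the acetate importer, ranged from 28.9 to 2623 RPKM in fast with a median of 1294, and from 68.4 to 1496 RPKM in slow with a median of 388. In fast it kept to 1098 to 2623 RPKM over time points 1 to 7 and 1409 to 2062 RPKM over 12 to 16. In slow, time points 2 and 14 reached 1396 and 1496 RPKM, and the next highest library had 828 RPKM. The mean cycle swung 59.1-fold in fast and 16.9-fold in slow (rank test q = 1.13e-05 and 0.0219), and the slow cycles correlated at 0.651, the lowest value of the 10 genes in slow.

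Because ADH2, ALD4, ACS1 and ADY2 moved together, the 300 bases before their start codons are shown, with those of ADH1 as a gene that peaked at another time. They come from the RefSeq genome, build R64, and are written 5′ to 3′ on the gene's strand. Whether the cultured strain has the same bases was not checked. Capitals mark GGAGA (the core bound by Adr1, a zinc finger activator of ADH2), CCAAT (bound by the Hap complex) and AGGGG (bound by Msn2 and Msn4), each on either strand.
ADH2 (chrXIII:874338-874637, minus strand): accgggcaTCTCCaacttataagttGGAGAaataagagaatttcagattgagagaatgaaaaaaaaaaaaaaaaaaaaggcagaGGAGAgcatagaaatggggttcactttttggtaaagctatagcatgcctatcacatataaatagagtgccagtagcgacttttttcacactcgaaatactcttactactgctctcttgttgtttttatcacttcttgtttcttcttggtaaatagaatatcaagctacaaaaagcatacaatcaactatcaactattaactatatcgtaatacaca
ALD4 (chrXV:1039540-1039839, plus strand): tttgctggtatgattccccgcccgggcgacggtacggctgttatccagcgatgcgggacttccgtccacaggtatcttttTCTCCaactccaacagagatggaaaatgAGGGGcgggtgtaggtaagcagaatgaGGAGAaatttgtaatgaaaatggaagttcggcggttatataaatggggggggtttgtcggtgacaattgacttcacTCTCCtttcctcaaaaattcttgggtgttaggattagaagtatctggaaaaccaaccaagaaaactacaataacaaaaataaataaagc
ACS1 (chrI:45023-45322, minus strand): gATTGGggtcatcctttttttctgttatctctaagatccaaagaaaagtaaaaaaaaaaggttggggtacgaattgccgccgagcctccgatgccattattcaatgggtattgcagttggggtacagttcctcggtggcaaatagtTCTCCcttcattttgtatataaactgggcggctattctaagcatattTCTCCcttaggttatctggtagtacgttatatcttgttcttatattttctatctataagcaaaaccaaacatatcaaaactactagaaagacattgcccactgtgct
ADY2 (chrIII:133125-133424, minus strand): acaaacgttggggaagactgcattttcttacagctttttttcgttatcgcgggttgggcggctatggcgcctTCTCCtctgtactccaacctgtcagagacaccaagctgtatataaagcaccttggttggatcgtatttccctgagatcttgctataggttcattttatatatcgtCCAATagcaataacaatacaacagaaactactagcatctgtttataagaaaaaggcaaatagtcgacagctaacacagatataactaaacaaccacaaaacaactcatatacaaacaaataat
ADH1 (chrXV:160595-160894, minus strand): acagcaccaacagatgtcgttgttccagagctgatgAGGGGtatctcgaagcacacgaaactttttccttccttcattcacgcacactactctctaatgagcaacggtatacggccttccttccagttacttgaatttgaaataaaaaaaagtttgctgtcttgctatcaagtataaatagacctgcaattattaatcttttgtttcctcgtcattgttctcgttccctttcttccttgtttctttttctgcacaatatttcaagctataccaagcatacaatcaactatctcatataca
GGAGA, searched on both strands, stood in all 4 windows, 3 times each in ADH2 and ALD4, 2 times in ACS1 and 1 time in ADY2. It also stood in the windows of PDC1 and ACS2, thus in 6 of the 10 genes, and in 34.6% of the 5820 windows of all tested genes. In ADH2, the pair of matches on opposite strands at -292 to -288 and at -275 to -271 from the start codon form the palindrome long known as an Adr1 element. CCAAT was found in PDC6, ACS1 and ADY2 (42.5% of all windows) and AGGGG in PDC1, ADH1, ALD6 and ALD4 (22.5% of all windows). The carbon source response element bound by Cat8 and Sip4, searched by its consensus on both strands, was in 0 of the 10 windows and in 0.223% of all windows. No match of these motifs overlapped another in the 10 windows, and a match is a string of letters, not a measured site.

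Within each condition ADH2, ALD4, ACS1 and ADY2 correlated with each other at 0.97 to 0.99 over the 20 fast libraries and at 0.82 to 0.97 over the 24 slow libraries (Pearson, log2(RPKM + 1); libraries of 1 course share the culture). PDC1 ran against these 4 genes at -0.83 to -0.81 in fast and at -0.59 to -0.36 in slow. PDC5, at its low level, ran against them at -0.93 to -0.89 in fast and at -0.89 to -0.65 in slow. ADH1 and ALD6 correlated at 0.25 in fast and 0.91 in slow, ADH1 and ACS2 at 0.44 and 0.82, and ALD6 and ACS2 at 0.66 and 0.78. PDC1 and PDC6 correlated at 0.69 in fast and 0.81 in slow. The difference between conditions in these correlations was not tested.

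The balance between the partner enzymes shifted within each cycle. In fast all 3 ratios fell below 1 in both cycles, and in slow only that of ADH2 to ADH1 did. The ADH2 level per length exceeded that of ADH1 in 14 of 20 fast libraries and 21 of 24 slow libraries, with a median ratio of 5.12 in fast and 7.38 in slow. ADH1 exceeded ADH2 at time points 9 to 11 and 18 to 20 in fast and at 1, 13 and 24 in slow, and the lowest ratio was 0.0551 in fast and 0.129 in slow. The ALD4 to ALD6 ratio ran from 0.730 to 13.1 in fast with a median of 7.15, and from 0.722 to 18.3 in slow with a median of 10.8. It fell below 1 in 5 fast libraries and in 2 slow libraries. The ACS1 to ACS2 ratio ran from 0.273 to 16.7 in fast with a median of 7.63, and from 0.657 to 23.4 in slow with a median of 13.1, and was below 1 in 5 fast libraries and 1 slow library. Thus the enzymes of respiratory growth were the more abundant RNAs over most of the cycle, and their counterparts at 2 or 3 time points around each drop in fast and at no more than 2 of 12 per cycle in slow.

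**Figure D3:**
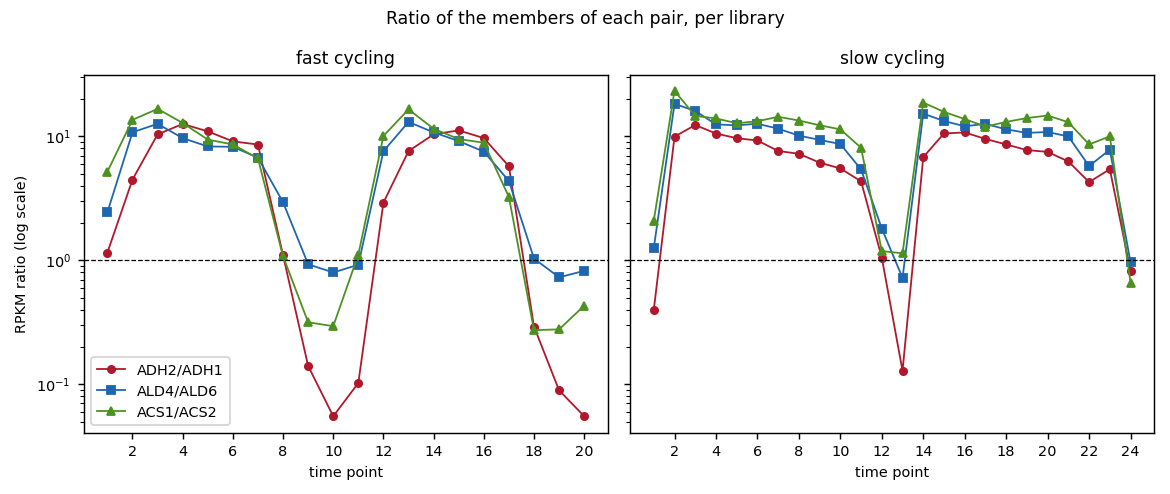
RPKM ratio of ADH2 to ADH1, ALD4 to ALD6 and ACS1 to ACS2 (log scale) in each library against its time point, fast at left and slow at right; the dashed line marks a ratio of 1. All 3 ratios drop steeply near the turn of each cycle, most of them to below the line, with a lowest ADH2 to ADH1 ratio of 0.0551 in fast and 0.129 in slow.

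Making and use were also set against each other across the steps. PDC1, at the entry to ethanol formation, exceeded ALD4 per length at time points 8 to 10 and 18 to 20 in fast and at 12, 13 and 24 in slow. It exceeded ADH2 in 8 of 20 fast libraries and in 10 of 24 slow libraries. The PDC1 to ADH2 ratio ranged from 0.0738 at time point 3 to 31.7 at time point 10 in fast, and from 0.0998 at time point 2 to 14.8 at time point 13 in slow.

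The average level over time points was then compared between conditions (limma on log2(RPKM + 1), fast minus slow, q over 5820 genes). Of the 10 genes, 0 were higher and 1 was lower in fast at q under 0.05 and at least a 2-fold difference, against 1.87% and 2.35% of all tested genes. That gene was PDC6, at 25.6 ± 23.2 RPKM in fast and 119.7 ± 91.5 RPKM in slow (SD over time points, n = 20 and 24), a log2 difference of -2.04 ± 0.35 (SE; q = 9.42e-06). ACS2 came just short of 2-fold, with 283 ± 58.5 RPKM in fast and 164 ± 118 RPKM in slow, a log2 difference of 0.95 ± 0.15 (q = 1.99e-06). Without regard to size, ACS2, ADH1, ALD6 and PDC5 were higher and PDC6 and PDC1 lower in fast, that is 4 and 2 of 10 against 17.9% and 20.4% of all tested genes. The log2 differences were 0.56 ± 0.20 for ADH1 (q = 0.0251), 0.48 ± 0.18 for ALD6 (q = 0.0255), 0.29 ± 0.12 for PDC5 (q = 0.0459) and -0.60 ± 0.20 for PDC1 (q = 0.0177). These 4 smaller differences did not pass in either cycle alone, with fewer libraries in the fit, where q was 0.339 and 0.0930 for ADH1, 0.322 and 0.0680 for ALD6, 0.314 and 0.190 for PDC5 and 0.0837 and 0.281 for PDC1 in the first and second cycle. PDC5 also missed with a pseudocount of 10 (q = 0.0717), while PDC6 and ACS2 kept q under 0.05 in all 10 alternatives. For ADH2, ALD4, ACS1 and ADY2 the level test did not pass, with log2 differences of -0.87 ± 0.60, -0.46 ± 0.46, -0.49 ± 0.51 and 0.33 ± 0.53; their swings within a cycle exceeded these differences. With 1 mean per cycle in place of the time points, 2 against 2, ADH2 (q = 0.00825), ALD4 (q = 0.0186) and ACS1 (q = 0.0365) had q under 0.05. So did 2923 of all 5820 tested genes under that setting, against 2226 with the time points. Its p-values measure the spread between the 2 cycles of a culture. The median of the 10 log2 differences was -0.08, against 0.0013 for all tested genes.

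With libraries scaled to the added control RNAs, the median of all genes lay 0.21 higher on the log2 scale, and there were 178 higher and 98 lower genes in place of 109 and 137. Under it ACS2 passed the 2-fold limit with a log2 difference of 1.16, PDC1 no longer had q under 0.05 (log2 difference -0.38, q = 0.184), and the direction of none of the 10 genes changed.

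**Figure D4:**
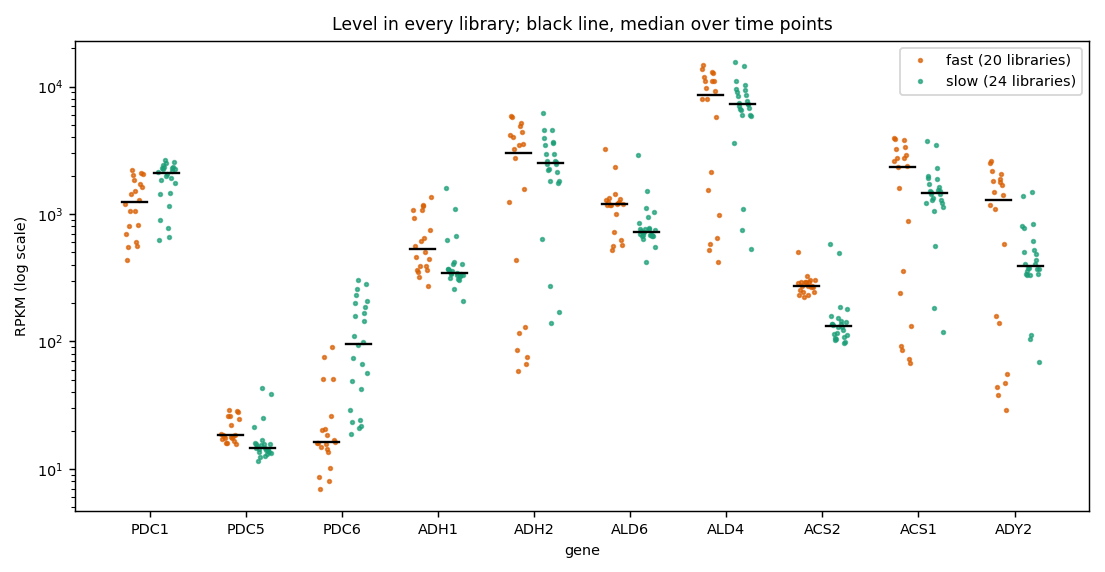
RPKM on a log scale of each gene in each library (dots, in time order from left to right within a gene), fast left of slow; black lines are medians over time points. PDC6 sits lower in fast (median 16.2) than in slow (median 96.1), while the fast and slow ranges of ADH2 and ALD4 overlap widely.

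Ordered by mean level per length, the genes ran in fast as ALD4, ADH2, ACS1, PDC1, ALD6, ADY2, ADH1, ACS2, PDC6 and PDC5, from 7355 to 20.5 RPKM. In slow PDC1 stood before ACS1 and the order was otherwise that of fast, from 7383 to 17.3 RPKM. Neighbours in this order differed by more than the larger of their SDs over time points only between ADH1 and ACS2 and between ACS2 and PDC6 in fast, and between ALD4 and ADH2 and between PDC6 and PDC5 in slow.

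How far each gene swung was compared between conditions by the peak-to-trough range of a cosine fitted to each course (z test, q over 4796 genes that cycled in at least 1 condition). The range was larger in fast for 5 of the 10 genes and larger in slow for 2, against 41.4% and 3.73% of all genes so tested. For ADH2 the cosine range was 6.45 ± 0.72 on the log2 scale in fast and 2.39 ± 0.70 in slow (SE), a difference of 4.07 ± 1.00 (q = 0.000761). ADY2 differed by 4.62 ± 0.91 (q = 2.33e-05), ACS1 by 3.97 ± 0.88 (q = 0.000177), ALD4 by 2.72 ± 0.84 (q = 0.00541) and ADH1 by 1.05 ± 0.36 (q = 0.0126). The genes with the larger range in slow were PDC6, by -1.32 ± 0.50 (q = 0.0240), and ACS2, by -0.95 ± 0.32 (q = 0.00954). Scaled to the control RNAs, ADH2, ALD4, ACS1 and ADY2 still passed, and PDC6 (q = 0.0770), ADH1 (q = 0.123) and ACS2 (q = 0.212) did not, where 308 of 3053 genes so tested passed.

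For the 4 genes that peaked after the turn, the cosine took 79.8% to 82.6% of the variance in fast and 21.5% to 35.6% in slow, with medians over all tested genes of 67.1% in fast and 31.8% in slow. Its period was fixed at 10 intervals in fast and 12 in slow. The best period of the rank test for these genes was 13 intervals in slow. In fast it was 10 for ADH2 and ADY2 and 11 for ALD4 and ACS1. The part of the fixed period in the range differences was not tested. The swing between the highest and the lowest position of the mean cycle, which assumes no shape, was 6.34 in fast and 4.63 in slow for ADH2, 5.89 and 4.08 for ADY2, 5.58 and 4.60 for ACS1 and 4.90 and 4.57 for ALD4. By that measure ADH1 swung less in fast, 2.02 against 2.50 in slow, the opposite of the cosine. In slow the level also stayed at or above mid-height for more of the cycle: ADH2 did so at 6 of 10 fast positions and 10 of 12 slow positions, ALD4 at 7 and 10 and ACS1 at 7 and 11. ADY2 did so at 7 and 10, but its slow mean first fell from 1446 RPKM at position 2 to 562 RPKM at 4 and 370 RPKM at 6. It then kept to 352 to 423 RPKM up to position 11, and several of these positions lay close to the mid-height line.

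Genes outside the 10 with the closest course were found for each member by Pearson's r of log2(RPKM + 1) over the 44 libraries, as a description. ADH2 was closest to CTA1 (peroxisomal catalase) and FOX2 (peroxisomal fatty acid oxidation), both at 0.99. ALD4 was closest to ATO3 at 0.99 and ARO9 at 0.98, ACS1 to ARO9 and TPO4 at 0.98, and ADY2 to CIT3 at 0.98 and ARO9 at 0.96. PDC1 was closest to YPL088W at 0.92 and BNA2 at 0.89, and PDC6 to STP4 at 0.93 and SFA1 at 0.92. PDC5 was closest to RNR1 (ribonucleotide reductase) and CLB6 (an S phase cyclin), both at 0.94. ADH1 was closest to MSD1 (mitochondrial aspartyl-tRNA synthetase) at 0.94 and COQ1 (ubiquinone synthesis) at 0.93, ALD6 to CRC1 and YAT2 (carnitine shuttle genes), both at 0.90, and ACS2 to YPR036W-A and ESP1, both at 0.91.

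The genes around these steps were taken as 6 lists with 47 genes, of which 46 were tested; ADH7 was listed at 0 in every library. The rank test called 37 of the 46 in fast and 24 in slow, near the background of 74.3% and 55.1%, and the F test called 44 in each condition. In level, 0 were higher and 1 was lower in fast past the 2-fold limit. In the list counts, cycled means called by the rank test. The F test in slow called 5 of 5 other alcohol dehydrogenases, 3 of 3 other aldehyde dehydrogenases and 9 of 11 regulators. It also called 4 of 4 monocarboxylate transport genes, 11 of 11 genes of acetyl-CoA transfer and use and 12 of 12 genes around pyruvate. Of 5 other alcohol dehydrogenases, 5 cycled in fast and 2 in slow. ADH6 (a broad alcohol dehydrogenase that uses NADPH) swung 5.39-fold in fast against 5.53-fold in slow with its peak at time points 8 and 12, and ADH3 swung 3.92-fold and 4.34-fold.

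All 3 other aldehyde dehydrogenases cycled in both conditions. ALD3, a stress-induced cytosolic form, was at 50.1 ± 47.3 RPKM in fast and 141 ± 79.5 RPKM in slow (SD, n = 20 and 24), a log2 difference of -1.86 ± 0.39 (limma q = 0.000202), the single level call in these lists. ALD5, a mitochondrial form, swung 4.86-fold in fast against 6.22-fold in slow. Of 11 regulators, which include activators and repressors of glucose-repressed genes as well as PDC2 and THI3 (pyruvate decarboxylase and thiamine genes) and HAA1 (weak acid response), 8 cycled in fast and 4 in slow, and none passed the level threshold. SIP4 (a Snf1-dependent activator) swung 4.42-fold in fast and 5.82-fold in slow, and HAP4 (the regulatory subunit of the Hap complex) 2.96-fold and 5.24-fold.

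Of 4 monocarboxylate transport genes, 4 cycled in fast and 2 in slow. JEN1 (the lactate and pyruvate importer) swung 10.0-fold in fast and 10.3-fold in slow, with its peak at time points 3 and 2. ATO3, a relative of ADY2, swung 13.3-fold in fast and 13.0-fold in slow; it passed the rank test in fast (q = 1.75e-06) and not in slow (q = 0.233), where the F test gave q = 2.08e-07. Of 11 genes of acetyl-CoA transfer and use, 7 cycled in each condition. CIT3 (a mitochondrial citrate and methylcitrate synthase) swung 56.7-fold in fast and 12.0-fold in slow, and CAT2 (carnitine acetyltransferase) 35.7-fold and 19.4-fold. Both peaked at time point 2 in both conditions, where ADY2 peaked. Of 12 genes around pyruvate, from the pyruvate kinases that make it to the carriers, dehydrogenase subunits and carboxylases that take it up or use it, 10 cycled in fast and 6 in slow. MPC3 (a mitochondrial pyruvate carrier subunit of respiring cells) swung 4.81-fold in fast and 5.42-fold in slow, and PYC1 (pyruvate carboxylase) 5.20-fold and 3.23-fold. ACT1 (actin), as a gene with little movement, swung 1.42-fold in each condition.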

How the data were processed

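Poly(A) RNA with added control RNAs was sequenced as stranded libraries, per the labels' protocols. The submitters' processing notes name FastQC 0.10.1, TopHat2 2.0.10 and HOMER. Per the file headers, the authors used HOMER to count sense-strand reads over gene bodies (sacCer3, with the control sequences) and deposited RPKM per library. Library depth was inferred as the number of reads at which low values, multiplied by the deposited gene lengths, came closest to whole reads. At that depth 100% of the checked values, 84 to 141 per library, were whole within 0.1 read. Depth was chosen on these same values, so that share is no independent check. No count test was used, since the deposited unit is RPKM.

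The 5820 yeast genes that averaged 1 RPKM or more were analysed as log2(RPKM + 1), which understates the change of low genes. Rhythm was tested with an own implementation of JTK_Cycle (periods of 9 to 11 intervals in fast and 11 to 13 in slow, Bonferroni over 30 and 36 templates). Level and position in the cycle were tested with limma 3.58.1 in R 4.3.3. Cosine fits used Python 3.11.15 with numpy 2.4.6 and scipy 1.17.1. q is the Benjamini-Hochberg adjusted p. The statistics were tested on simulated data with independent noise and rhythms of cosine shape, unlike the long plateaus of some genes here. Simulated rhythms with a range of 1 on the log2 scale were recovered in 34% of cases in fast and 54% in slow. Those with a range of 2 were recovered in 97% and 100%. A range difference of 1 between conditions was recovered in 50% of cases. The alternatives were other scalings, pseudocounts, filters, tests and single cycles; leaving out slow time points 12 and 24 was chosen after seeing the data. The members and lists were chosen with earlier results of these data known. The text names all members, of each list the 2 genes with the largest swing and any past the level threshold, the 2 genes most like each member, and 4 marks of the cycle. Coding and upstream sequences came from the RefSeq genome, where 99.9% of 6008 matched rows have the start and end of the table. They were not compared with the genome of the cultured strain.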

Additional observations from a re-analysis of the deposited data

Results flagged for a closer look

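For 7 of the 10 genes the peak-to-trough range of the fitted cosine differed between fast and slow by a test of the difference itself. The same test called 2164 of the 4796 genes so tested. The difference, fast minus slow on the log2 scale, was 4.62 for ADY2, 4.07 for ADH2, 3.97 for ACS1, 2.72 for ALD4, 1.05 for ADH1, -0.95 for ACS2 and -1.32 for PDC6. Measured instead as the highest minus the lowest position of the mean cycle, which has no test, the differences were 1.81 for ADY2, 1.71 for ADH2, 0.98 for ACS1, 0.33 for ALD4, -0.49 for ADH1, -1.58 for ACS2 and -0.59 for PDC6. The share of variance taken by the cosine lay between 14.9% and 91.4% for the 10 genes in fast and between 16.6% and 86.5% in slow.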

How the results depend on the processing

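Of 340 recomputed values for the 10 genes, 304 kept their direction and their side of the threshold, 13 newly passed it, 14 no longer passed, 8 moved and 1 reversed. The reversal was the range difference of ADH1, which was -0.49 as the range of the mean cycle. Scaled to the control RNAs, 1481 genes cycled in fast (4325 before), 308 genes differed in cosine range, 4 of the 10 members differed in range and 2 passed the level threshold. The F test called 4957 genes in slow (3206 by rank). With a linear trend removed, 4 of the 10 members cycled in slow, beside 2184 of all 5820 tested genes. A pseudocount of 10 left 140 genes past the level threshold (246 before). All 10 level results kept their direction under each of 10 alternatives, 1 of which (without slow time points 12 and 24) was chosen after seeing the data. At q under 0.05 with a 2-fold difference, ACS2 alone changed side. By q alone, ADH1, ALD6, PDC5 and PDC1 did not pass in either cycle alone, PDC5 not with a pseudocount of 10 and PDC1 not scaled to the control RNAs, while ADH2, ALD4 and ACS1 passed with cycle means. Without those 2 time points ADH1 passed the rank test in slow (q = 0.00130). The causes were not tested. No paired analysis was possible because the numbers of the time points mark other intervals and other parts of the cycle in fast than in slow. The least covered member value rested on 126 reads.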
